A study of Saccharomyces cerevisiae with 36 samples.

Results

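The 10 genes of budding yeast that take up sulfate, reduce it and turn it into methionine and S-adenosylmethionine were followed across 12 groups of RNA sequencing libraries. They are SUL1, SUL2, MET3, MET14, MET16, MET5, MET10, MET6, SAM1 and SAM2. They were chosen by gene name for their known place in the pathway, with earlier results of these data known. Of these 10, 10 were found among the 7126 genes of the count table and kept among the 6109 genes tested. Yeast imports sulfate through the permeases Sul1 and Sul2, activates it with ATP, reduces it to sulfite and then to sulfide, and joins the sulfide to O-acetylhomoserine to make homocysteine. Methionine synthase turns homocysteine into methionine, and S-adenosylmethionine (AdoMet) synthetase makes AdoMet, the methyl donor of most cellular methylation. The transcription activator Met4, which reaches DNA through Cbf1, Met31 and Met32, is known to drive most of these genes when sulfur amino acids are scarce.

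All 4 strains are haploid cells of mating type a with the markers his3∆1, leu2∆0, ura3∆0 and met15∆0. MET15 is the older name of MET17, the O-acetylhomoserine sulfhydrylase gene. Every group here, controls included, thus lacks this gene of the step between sulfide and homocysteine. WT carries no further change. In hsf1∆ the gene of the heat shock transcription factor Hsf1 is replaced by kanMX and a cassette. As read from a partly garbled label, the ADH1, TEF1 and TDH3 promoters in it drive YDJ1, HSC82 and SSA2, genes of chaperones. HSF1+ (labelled HSF1) holds the same cassette with an HSF1 gene in it and is labelled LYS2. The strain labelled msn2/4∆ has hphMX4 in MSN2 and natMX4 in MSN4, the genes of 2 general stress activators. Whether a strain stands for 1 clone is not given. Each strain was grown in YPD, a rich medium that supplies organic sulfur, and was kept at 25 °C without treatment, put at 37 °C during 15 min (heat shock), or treated at 25 °C with 10 mM AzC over 1 h. AzC, azetidine-2-carboxylic acid, is a proline analog that enters new proteins and misfolds them. Each of the 12 groups has 3 libraries. They are labelled as triplicates, and nothing says how separate the cultures were, so p-values measure the spread between these libraries, which may be technical.

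Total counts were 8159203 to 99558095 per library, with at most 15448180 in 32 of the 36 libraries and at least 42724231 in the other 4 (untreated WT replicates 2 and 3, AzC-treated HSF1+ replicates 1 and 2). The 10 genes took 0.0640% to 0.223% of a library's counts, and the fewest counts of any of them in a library were 3, for SUL1. MET17 had 0 counts in all 36 libraries, as did LEU2 and URA3. HSF1 stood at 98.4 ± 3.76 CPM in untreated WT, 55.4 ± 1.52 in HSF1+ and 14.6 ± 2.15 in hsf1∆ (CPM, read counts after TMM scaling per 1000000 counts of a library, mean ± SD, n = 3, as below). MSN2 read 132.4 ± 3.12 CPM in untreated WT and 1.41 ± 0.596 in the strain labelled msn2/4∆, whereas MSN4 read 38.4 ± 7.53 and 52.9 ± 4.81, so the MSN2 transcript was nearly lost there and the MSN4 transcript was not. LYS2 gave 170 to 217 CPM in the untreated groups of all 4 strains. HIS3, whose allele his3∆1 lacks only part of the gene, was read in all 36 libraries, at 39.3 to 88.4 CPM. Markers of mating type a summed to 326 to 2271 CPM, while 4 markers of mating type alpha summed to 49.7 to 105.8 CPM. Of these 4 the alpha-factor genes MF(ALPHA)1 and MF(ALPHA)2 stayed at or below 1.46 and 0.914 CPM, whereas STE3 and SAG1 were read in all 36 libraries, at 3.59 to 18.6 and 38.3 to 99.2 CPM. The sum for mating type a was lower in heat-shocked libraries (930 to 1128 CPM in WT against 2105 to 2214 untreated, and 326 to 360.0 in hsf1∆ against 1217 to 1314), and its part in the results was not tested. In these bulk samples fewer cells of a kind and less RNA per cell cannot be told apart.

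Upstream windows of the genes were sorted into 2 kinds by 2 of the motifs given below, CACGTG and TGTGGC, and 3 windows of each kind are shown. The motif AAACTGTGG does not follow this split, as it occurs in both kinds. Each window holds the 300 bases from 450 to 151 before the start codon, from the RefSeq sequence of build R64, written 5′ to 3′ on the gene's strand. Capitals mark motifs found on either strand. The Cbf1 motif is CACGTG. The Met31 and Met32 motif was searched in a short form, TGTGGC, and in a longer one, AAACTGTGG, and the end of the longer form overlaps the start of the short one. The Gcn4 motif is TGACTC, and the stress response element of Msn2 and Msn4 is AGGGG. MET3 (chrX:455789-456088, plus strand), MET16 (chrXVI:877783-878082, minus strand) and SAM2 (chrIV:1454615-1454914, minus strand) hold the Cbf1 motif and the short Met31 and Met32 form:
MET3: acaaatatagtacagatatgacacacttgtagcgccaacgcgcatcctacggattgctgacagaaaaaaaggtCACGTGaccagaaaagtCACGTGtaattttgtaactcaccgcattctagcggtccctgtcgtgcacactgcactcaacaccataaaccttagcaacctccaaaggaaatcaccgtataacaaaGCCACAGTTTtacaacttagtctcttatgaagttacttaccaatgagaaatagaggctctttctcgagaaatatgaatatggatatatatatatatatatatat
MET16: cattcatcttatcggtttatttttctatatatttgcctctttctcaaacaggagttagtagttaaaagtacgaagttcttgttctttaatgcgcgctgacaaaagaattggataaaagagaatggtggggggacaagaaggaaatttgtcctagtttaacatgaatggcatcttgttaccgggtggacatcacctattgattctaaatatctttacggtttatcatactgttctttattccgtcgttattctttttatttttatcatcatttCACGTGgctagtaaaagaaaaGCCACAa
SAM2: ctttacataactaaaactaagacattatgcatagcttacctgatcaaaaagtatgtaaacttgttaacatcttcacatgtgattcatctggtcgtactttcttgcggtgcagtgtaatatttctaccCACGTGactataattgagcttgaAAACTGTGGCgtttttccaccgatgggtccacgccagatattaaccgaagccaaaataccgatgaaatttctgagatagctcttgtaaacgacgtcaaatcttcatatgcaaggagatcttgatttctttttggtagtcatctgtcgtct
MET6 (chrV:342318-342617, minus strand), SAM1 (chrXII:514812-515111, plus strand) and SUL1 (chrII:788785-789084, plus strand) hold neither of those 2, although MET6 and SAM1 hold the longer Met31 and Met32 form:
MET6: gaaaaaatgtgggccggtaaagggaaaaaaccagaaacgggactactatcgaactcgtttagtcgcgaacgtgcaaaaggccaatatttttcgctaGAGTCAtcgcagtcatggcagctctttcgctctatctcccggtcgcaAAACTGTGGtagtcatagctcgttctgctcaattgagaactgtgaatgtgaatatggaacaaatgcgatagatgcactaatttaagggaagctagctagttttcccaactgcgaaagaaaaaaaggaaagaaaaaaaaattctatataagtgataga
SAM1: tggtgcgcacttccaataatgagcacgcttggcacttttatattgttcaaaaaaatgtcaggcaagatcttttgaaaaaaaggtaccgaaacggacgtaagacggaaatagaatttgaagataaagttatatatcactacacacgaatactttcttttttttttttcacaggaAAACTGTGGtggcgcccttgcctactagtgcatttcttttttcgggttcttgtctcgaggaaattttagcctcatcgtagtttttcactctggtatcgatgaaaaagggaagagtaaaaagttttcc
SUL1: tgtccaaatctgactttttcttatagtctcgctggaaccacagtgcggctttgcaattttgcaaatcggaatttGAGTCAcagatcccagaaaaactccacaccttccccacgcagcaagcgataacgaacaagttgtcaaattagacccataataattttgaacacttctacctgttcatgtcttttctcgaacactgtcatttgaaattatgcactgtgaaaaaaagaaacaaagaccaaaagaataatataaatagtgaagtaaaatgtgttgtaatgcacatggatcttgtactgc
CACGTG was found in 7 of the 10 windows, those of SUL2, MET3, MET14, MET16, MET5, MET10 and SAM2, against 4.667% of 6000 yeast windows of the same length. TGTGGC was found in those same 7, against 9.55%. AAACTGTGG was found in 4, those of MET3, MET6, SAM1 and SAM2, against 0.6%. TGACTC was found in SUL1, MET5 and MET6 and in 8.35% of all windows, and AGGGG in MET10 and in 23.38% of all windows. The heat shock element, taken as 3 alternating units of TTC and GAA with free spacer bases, was found in 0 of the 10 and in 1.033% of all windows. The motifs were chosen after expression values were known, and AAACTGTGG after the windows had been read. A match is no proof of a site, and the windows of SUL2, MET16 and MET10 overlap in part the coding sequence of the neighbours GEP5, NUT2 and PTR3.

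In untreated WT the pathway was most expressed at its end. Per kilobase of coding sequence, SAM1 was highest at 686 ± 60.4 CPM, followed by MET6 at 229 ± 20.4 and SAM2 at 219 ± 4.85, whose libraries overlapped. Next came MET14 at 78.4 ± 2.55 and MET3 at 36.8 ± 2.05. MET10 at 28.7 ± 2.93, MET5 at 26.2 ± 1.12 and MET16 at 25.2 ± 1.51 overlapped with their neighbours in this order. The sulfate permease genes were lowest, SUL2 at 6.83 ± 0.161 and SUL1 at 0.415 ± 0.224 CPM per kilobase.

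Across the 12 groups the genes differed in how far they moved. The ratio of the highest to the lowest group mean was 30.2 for SUL1 and 21.6 for SAM1, then 6.59 for MET6, 4.02 for SAM2 and 3.30 for SUL2. It was 2.29 for MET16, 2.25 for MET10, 2.16 for MET14, 1.94 for MET3 and 1.55 for MET5. The median of this ratio was 2.57 over the 5806 genes that averaged 1 CPM or more, with quartiles of 1.85 and 4.77. The 5 genes of sulfate activation and reduction thus lay below that median, and the other 5 genes lay above it. The SUL1 ratio is imprecise, since its lowest group mean was 0.349 CPM in untreated HSF1+, from 3, 5 and 6 counts. The strain labelled msn2/4∆ held the highest group mean of all 10 genes, under 1 condition or another.

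**Figure D1:**
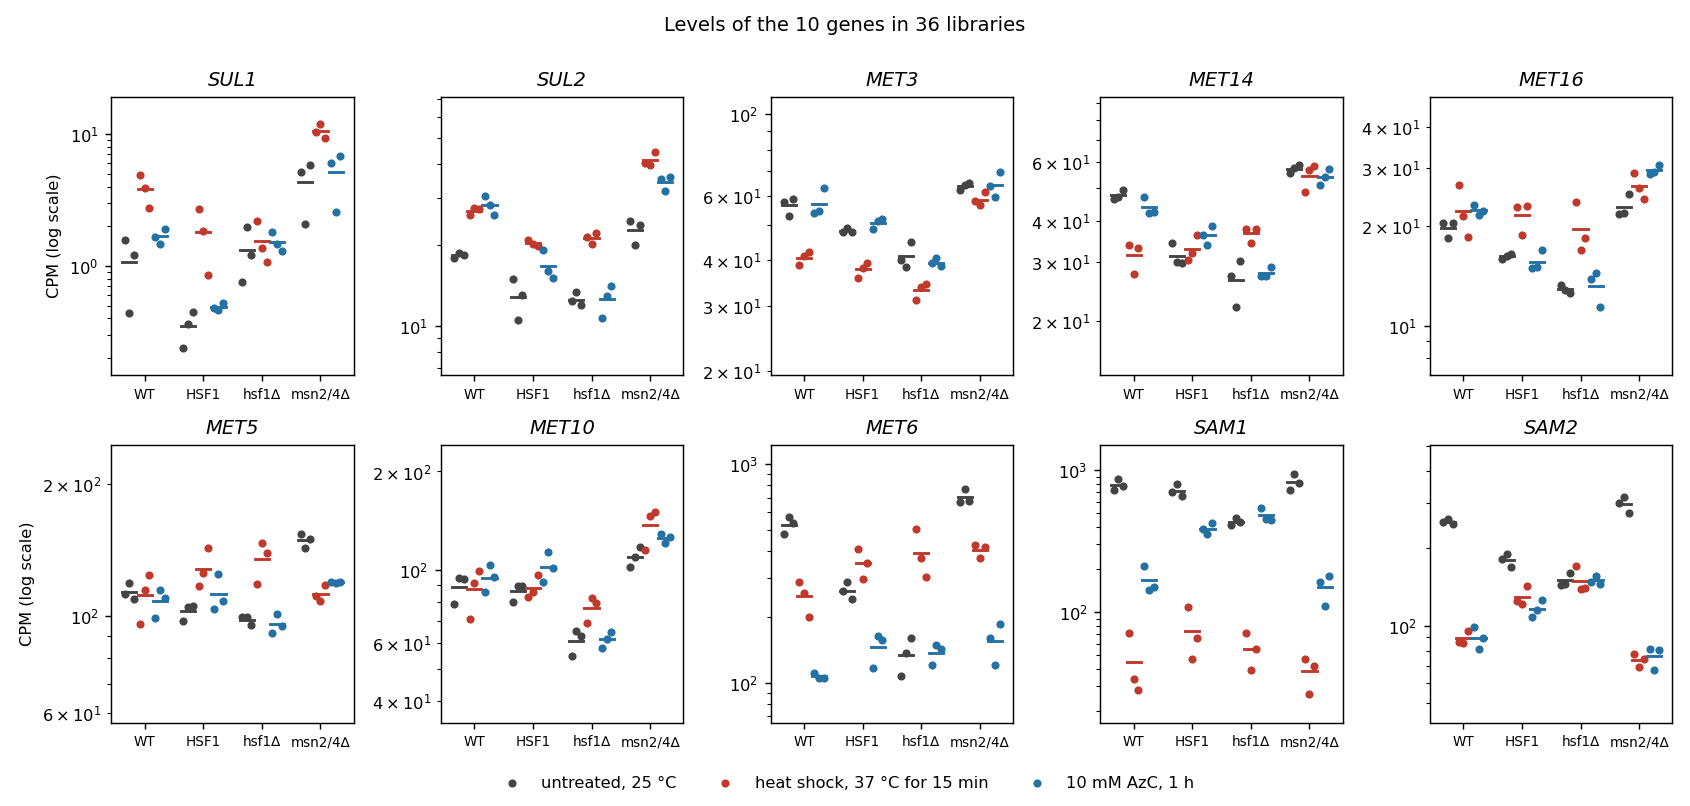
Levels of the 10 genes in each of the 36 libraries, as CPM on log axes, by strain and by condition (dark grey untreated, red heat shock, blue AzC), with a bar at the mean of 3 libraries. SAM1 falls in the heat-shocked libraries of every strain, from a mean of 788 to 44.3 CPM in WT, while MET5 stays between group means of 95.8 and 149 CPM.

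SUL1 (YBR294W, chromosome II, 789235 to 791814) encodes a high-affinity sulfate permease, and its few transcripts rose in heat shock in 3 of 4 strains. In WT the untreated libraries held 1.57, 0.438 and 1.20 CPM and the heat-shocked ones 4.89, 3.91 and 2.74. The lowest heat-shocked library was above the highest untreated one, and the log2 change was 2.01 ± 0.41 (± standard error of the edgeR fit, adjusted p = 6.11e-05). HSF1+ went from 0.238, 0.363 and 0.444 to 2.72, 1.84 and 0.852 CPM, a log2 change of 2.36 ± 0.63 (adjusted p = 0.00128). The strain labelled msn2/4∆ went from 5.18, 2.09 and 5.81 to 10.4, 11.9 and 9.31 CPM, a log2 change of 1.26 ± 0.34 (adjusted p = 0.00152). In both of these strains the groups did not overlap. In hsf1∆ they did, with 0.757, 1.97 and 1.22 CPM untreated and 2.20, 1.38 and 1.08 heat-shocked (log2 change 0.30 ± 0.50, adjusted p = 0.6). The difference between the hsf1∆ and HSF1+ changes was -2.07 ± 0.83 and did not pass (adjusted p = 0.0751), though it passed without hsf1∆ heat-shock replicate 1 (-2.35, adjusted p = 0.0468) or HSF1+ heat-shock replicate 3 (-2.38, adjusted p = 0.0387) and by DESeq2 (-2.03, adjusted p = 0.0281). The WT change was 1.27 without the 4 deep libraries, where replicate 1 is the only untreated WT library. The HSF1+ change was 1.76 with replicates 2 and 3 alone (adjusted p = 0.0702).

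SUL2 (YLR092W, chromosome XII, 323544 to 326225), the paralog of SUL1 and also a high-affinity sulfate permease gene, rose in heat shock in all 4 strains. WT went from 17.9, 18.7 and 18.4 to 25.8, 27.4 and 27.3 CPM, a log2 change of 0.55 ± 0.10 (adjusted p = 2.18e-05). HSF1+ went from 15.0, 10.5 and 13.1 to 20.9, 20.2 and 19.9 CPM, at 0.66 ± 0.11 (adjusted p = 5.32e-06). In hsf1∆ the change was 0.77 ± 0.11 (adjusted p = 5.1e-07) and in the strain labelled msn2/4∆ 0.86 ± 0.10 (adjusted p = 1.8e-08), and in every strain all heat-shocked libraries were above all untreated ones. AzC raised SUL2 by 0.62 ± 0.10 in WT, where the treated libraries held 30.5, 28.2 and 25.9 CPM (adjusted p = 5.46e-06), by 0.59 ± 0.10 in the strain labelled msn2/4∆ (adjusted p = 1.49e-05) and by 0.39 ± 0.11 in HSF1+ (adjusted p = 0.00433). The HSF1+ value was 0.26 without untreated HSF1+ replicate 2 (adjusted p = 0.0601). It was 0.23 without the 4 deep libraries, where replicate 3 is the only AzC-treated HSF1+ library. In AzC-treated hsf1∆ the libraries held 10.7, 12.9 and 14.1 CPM against 12.4, 13.4 and 11.9 untreated, and the change was -0.00 with a 95% interval of -0.24 to 0.24. SUL1 did not pass under AzC in any strain, with log2 changes from 0.22 ± 0.36 to 0.84 ± 0.45, although in WT it passed without untreated replicate 1 (1.08, adjusted p = 0.0488). SUL1 and SUL2 are 61.7% identical over their coding sequences and share no stretch of 50 bases.

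MET3 (YJR010W, chromosome X, 456239 to 457774) and MET14 (YKL001C, chromosome XI, 438777 to 439385) encode ATP sulfurylase and adenylyl-sulfate kinase, the enzymes that activate sulfate. Both fell in heat-shocked WT. MET3 went from 57.7, 52.9 and 58.8 to 38.8, 41.1 and 42.3 CPM, a log2 change of -0.47 ± 0.07 (adjusted p = 4.1e-07). MET14 went from 46.5, 47.2 and 49.5 to 33.9, 27.7 and 33.2 CPM, a log2 change of -0.60 ± 0.09 (adjusted p = 1.23e-06). Neither gene's groups overlapped. MET3 also fell in heat-shocked HSF1+, at -0.35 ± 0.07 (adjusted p = 4.74e-05), and hsf1∆, at -0.31 ± 0.07 (adjusted p = 0.000244). The hsf1∆ value was -0.17 without untreated hsf1∆ replicate 3 (adjusted p = 0.0535) and -0.20 without hsf1∆ heat-shock replicate 1. In the strain labelled msn2/4∆ it was -0.12 ± 0.07 (adjusted p = 0.0958), with 62.1, 64.2 and 65.1 CPM untreated and 57.9, 56.4 and 61.3 heat-shocked. That change passed with the RLE size factors of DESeq2 in place of TMM (-0.17, adjusted p = 0.0287), by DESeq2 itself (-0.17, adjusted p = 0.0311), with the replicate number as a block (-0.12, adjusted p = 0.0396) and with the compared groups alone (-0.21, adjusted p = 0.0128).

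MET14 took another course in hsf1∆, where it rose from 27.3, 22.1 and 30.4 to 37.9, 34.3 and 37.8 CPM, a log2 change of 0.45 ± 0.10 (adjusted p = 0.000104). In HSF1+ it changed by 0.07 ± 0.10 and in the strain labelled msn2/4∆ by -0.07 ± 0.09, neither of which passed. AzC left both genes without a call in all 4 strains, though with scaling by library size alone MET3 passed in WT (0.16, adjusted p = 0.0352) and in the strain labelled msn2/4∆ (0.21, adjusted p = 0.00647). The 95% intervals of the AzC change in hsf1∆ were -0.20 to 0.08 for MET3 and -0.14 to 0.26 for MET14. In HSF1+ the AzC change of MET14 was 0.20 ± 0.09 (adjusted p = 0.0738), and it passed without untreated HSF1+ replicate 1 (0.27, adjusted p = 0.0408) or with the replicate block (0.20, adjusted p = 0.0336).

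MET16 (YPR167C, chromosome XVI, 876847 to 877632) encodes the reductase that makes sulfite from activated sulfate. It rose in heat shock in the 2 strains with the chaperone cassette. HSF1+ went from 15.9, 16.3 and 16.5 to 22.9, 18.9 and 23.0 CPM, at 0.41 ± 0.12 (adjusted p = 0.0028). In hsf1∆ it went from 13.3, 12.9 and 12.6 to 23.6, 17.0 and 18.4 CPM, at 0.61 ± 0.12 (adjusted p = 6.03e-05). WT (0.17 ± 0.11) and the strain labelled msn2/4∆ (0.20 ± 0.12) did not pass, and WT passed without heat-shock replicate 3 (0.29, adjusted p = 0.0309). With scaling by library size alone the strain labelled msn2/4∆ passed (0.36, adjusted p = 0.0147). AzC raised MET16 in the strain labelled msn2/4∆ alone among the calls, from 21.9, 21.9 and 25.1 to 28.8, 29.2 and 30.7 CPM (0.36 ± 0.11, adjusted p = 0.0064). With scaling by library size alone it passed in WT too (0.33, adjusted p = 0.0276, against 0.18 ± 0.11 with TMM), and was 0.56 in the strain labelled msn2/4∆. Between that strain and WT the AzC changes differed by 0.18 ± 0.16 (adjusted p = 0.699), which did not pass.

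MET5 (YJR137C, chromosome X, 678957 to 683285) and MET10 (YFR030W, chromosome VI, 213312 to 216419) encode the 2 subunits of sulfite reductase, which makes sulfide. Both rose in heat-shocked hsf1∆, MET5 from 99.7, 99.4 and 95.3 to 118.4, 147 and 139 CPM (0.46 ± 0.09, adjusted p = 3.04e-05) and MET10 from 54.9, 65.4 and 62.8 to 69.0, 82.0 and 79.3 CPM (0.33 ± 0.12, adjusted p = 0.0108). MET5 also rose in heat-shocked HSF1+, at 0.32 ± 0.09 (adjusted p = 0.00153). In the strain labelled msn2/4∆ the 2 subunit genes moved apart. There MET5 fell from 154, 143 and 149.7 to 110.99, 108.4 and 117.5 CPM (-0.41 ± 0.09, adjusted p = 0.00013, and -0.25 with scaling by library size alone), and MET10 rose from 102.6, 109.5 and 117.4 to 114.9, 146 and 151 CPM (0.32 ± 0.11, adjusted p = 0.0118). The MET5 groups did not overlap and the MET10 groups did. The MET10 rise did not pass without untreated replicate 1 of that strain (0.27, adjusted p = 0.0572), heat-shock replicate 2 (0.27, adjusted p = 0.053) or heat-shock replicate 3 (0.25, adjusted p = 0.0762), nor with the compared groups alone (0.23, adjusted p = 0.0899). In heat-shocked WT both stayed near their untreated level, at -0.02 ± 0.09 for MET5 and -0.03 ± 0.11 for MET10.

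Under AzC a single call was made for this pair, a fall of MET5 in the strain labelled msn2/4∆ to 119.5, 118.7 and 119.8 CPM, at -0.32 ± 0.09 (adjusted p = 0.002). With scaling by library size alone that change was -0.12 and did not pass (adjusted p = 0.208), while MET10 of the same strain, at 0.19 ± 0.11 (adjusted p = 0.138), then passed at 0.39 (adjusted p = 0.00215). MET10 there also passed with the replicate block (0.20, adjusted p = 0.016). MET10 in AzC-treated HSF1+ was at 0.25 ± 0.11 (adjusted p = 0.0763), and at 0.32 without AzC replicate 1 (adjusted p = 0.0434) or 0.25 with the compared groups alone (adjusted p = 0.04). It passed too with the replicate block (0.25, adjusted p = 0.00508) and with replicates 2 and 3 alone (0.27, adjusted p = 0.00652).

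MET6 (YER091C, chromosome V, 339864 to 342167) encodes methionine synthase, and its response to heat differed in sign between strains. In WT it fell from 476.5, 569 and 536 to 289, 258 and 199.6 CPM, a log2 change of -1.08 ± 0.17 (adjusted p = 1.92e-06). In hsf1∆ it rose from 107.2, 135.98 and 159.6 to 503, 372 and 305 CPM, a log2 change of 1.55 ± 0.18 (adjusted p = 5.99e-09). Every untreated hsf1∆ library was below every untreated WT library, and after heat shock every hsf1∆ library was above every WT one. HSF1+ lay between, from 263, 288 and 239.9 to 408, 297 and 353 CPM (0.42 ± 0.17, adjusted p = 0.028), and the strain labelled msn2/4∆ fell from 669, 766 and 679 to 426, 371 and 416 CPM (-0.80 ± 0.17, adjusted p = 0.000131). The rise in HSF1+ is the least firm of the 4, since it did not pass without untreated replicate 1 (0.42, adjusted p = 0.0577), untreated replicate 3 (0.36, adjusted p = 0.0987), heat-shock replicate 1 (0.30, adjusted p = 0.145) or heat-shock replicate 3 (0.42, adjusted p = 0.053), nor with library size alone (0.38, adjusted p = 0.0633) or replicates 2 and 3 alone (0.30, adjusted p = 0.101).

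After AzC, MET6 fell in 3 strains. WT fell to 110.5, 105.4 and 105.05 CPM, a log2 change of -2.30 ± 0.18 (adjusted p = 9.21e-12). The strain labelled msn2/4∆ fell to 160.2, 120.1 and 185.5 CPM, at -2.18 ± 0.18 (adjusted p = 1.84e-11), and HSF1+ to 116.4, 163 and 156 CPM, at -0.86 ± 0.17 (adjusted p = 0.000242). In all 3 strains every treated library was below every untreated one. In hsf1∆ the treated libraries held 120.5, 149 and 142 CPM, close to the untreated ones, and the change was 0.03 with a 95% interval of -0.33 to 0.39. MET6 was not alone in this, since AzC in hsf1∆ called 0% of all tested genes up and 0.0164% down.

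SAM1 (YLR180W, chromosome XII, 515262 to 516410) encodes 1 of the 2 AdoMet synthetases and had the largest fall of the 10 genes in heat shock in all 4 strains. In WT it went from 726.5, 863 and 775 to 70.7, 33.8 and 28.5 CPM, a log2 change of -4.16 ± 0.31 (adjusted p = 7.94e-13). In the strain labelled msn2/4∆ it went from 721, 948 and 809.9 to 46.6, 26.6 and 41.4 CPM, at -4.43 ± 0.31 (adjusted p = 3.46e-13). HSF1+ ended at 108.3, 46.9 and 65.3 CPM (-3.29 ± 0.30, adjusted p = 6.72e-11) and hsf1∆ at 71.1, 38.9 and 55.1 CPM (-2.98 ± 0.29, adjusted p = 3.68e-10). The groups stood far apart in every strain, and heat-shock replicate 1 was the highest of its 3 libraries in each of the 4 strains. After AzC SAM1 fell in 3 strains. WT fell to 211, 142 and 151 CPM (-2.23 ± 0.28, adjusted p = 8.07e-08), the strain labelled msn2/4∆ to 163, 110.7 and 181 CPM (-2.45 ± 0.28, adjusted p = 1.54e-08) and HSF1+ to 383, 356 and 426 CPM (-0.89 ± 0.27, adjusted p = 0.00949). The HSF1+ fall was -0.77 without the 4 deep libraries, where replicate 3 is the only AzC-treated HSF1+ library. In hsf1∆ the AzC-treated libraries held 538, 457 and 447 CPM against 408, 462 and 435 untreated, and the interval of the change was wide, from -0.41 to 0.70.

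SAM2 (YDR502C, chromosome IV, 1453310 to 1454464), the other AdoMet synthetase gene, fell with SAM1 in 3 strains, and did not pass in hsf1∆. Heat-shocked WT went from 253, 259 and 248 to 86.5, 85.9 and 95.2 CPM, a log2 change of -1.51 ± 0.09 (adjusted p = 7.92e-15). The strain labelled msn2/4∆ went from 299, 316 and 274.5 to 77.7, 69.2 and 74.4 CPM, at -2.01 ± 0.09 (adjusted p = 4.12e-17), and HSF1+ from 182, 191 and 169 to 124.7, 121.05 and 143 CPM, at -0.48 ± 0.09 (adjusted p = 2.28e-05). In hsf1∆ the heat-shocked libraries held 171, 138 and 139.7 CPM and the untreated ones 144, 146 and 159.9, so that the groups overlapped and the change was -0.00 ± 0.09. Under AzC, SAM2 fell by nearly the same amount as in heat shock in WT, at -1.49 ± 0.09 (adjusted p = 4.98e-14), and in the strain labelled msn2/4∆, at -1.95 ± 0.09 (adjusted p = 2.04e-16). HSF1+ fell to 107.8, 114.9 and 126.3 CPM, at -0.64 ± 0.09 (adjusted p = 2.08e-06), and hsf1∆ changed by -0.00, with a 95% interval of -0.18 to 0.18.

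The share of SAM1 in the AdoMet synthetase transcripts followed from this. Per kilobase, SAM1 made up 75.7 ± 1.37% of SAM1 plus SAM2 in untreated WT, 80.0 ± 0.861% in HSF1+, 74.5 ± 1.51% in hsf1∆ and 73.6 ± 2.41% in the strain labelled msn2/4∆. After heat shock it was 32.2 ± 11.5%, 35.4 ± 9.89%, 26.6 ± 4.01% and 33.8 ± 5.20% in the same order. SAM2 was thus the more abundant transcript in the heat-shocked libraries of all 4 strains. After AzC the shares were 65.0 ± 2.95%, 77.0 ± 1.22%, 76.2 ± 2.05% and 66.1 ± 3.53%. The 2 coding sequences, of 1149 and 1155 bases, are 82.77% identical and share 1.818% of their 50-base words and no 100-base word, and the sources used here do not give how reads that fit both were counted.

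**Figure D2:**
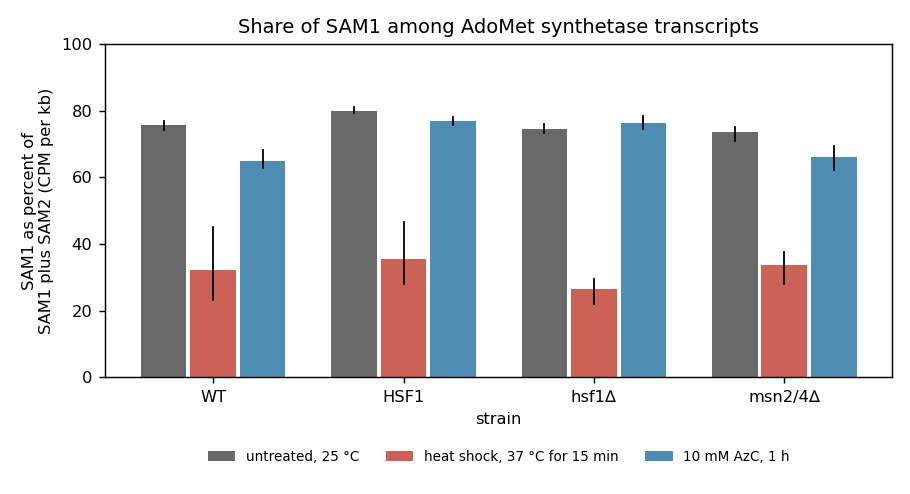
SAM1 as a percentage of SAM1 plus SAM2 transcripts, each per kilobase, in 4 strains and 3 conditions, with bars at the mean of 3 libraries, error bars from the lowest to the highest library and an axis that starts at 0. The share drops from between 73.6% and 80.0% untreated to between 26.6% and 35.4% after heat shock.

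By count, the 10 genes moved as follows in heat shock. In WT 2 rose and 5 fell, where 42% of all tested genes rose and 38.1% fell. In HSF1+ 5 rose and 3 fell, against 40% and 36.5% of all genes, and in hsf1∆ 6 rose and 2 fell, against 38.2% and 38.4%. In the strain labelled msn2/4∆ 3 rose and 4 fell, against 43.5% and 34%. With so many genes changed, most of these counts lie near the background, and the sizes and signs above carry the description. The median log2 change of the 10 was -0.25 in WT, 0.20 in HSF1+, 0.39 in hsf1∆ and -0.10 in the strain labelled msn2/4∆. Over all tested genes the corresponding medians were 0.05, 0.03, -0.01 and 0.11.

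In AzC 1 of the 10 rose and 3 fell in WT, where 34.2% of all genes rose and 32.7% fell (42.8% and 24.4% with scaling by library size alone). The same numbers held in HSF1+, 1 and 3, against 23% and 21.9%, and in the strain labelled msn2/4∆ 2 rose and 4 fell, against 36% and 31% (48.6% and 22.5% with library size alone). In all 3 of these strains SUL2 was among those that rose, and MET6, SAM1 and SAM2 were among those that fell. In hsf1∆ 0 of 10 passed by edgeR, against 0% of all genes up and 0.0164% (1 gene) down. By DESeq2 0 passed. At an unadjusted p under 0.05 it was 0 too, and the share of all genes at that threshold was not computed.

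**Figure D3:**
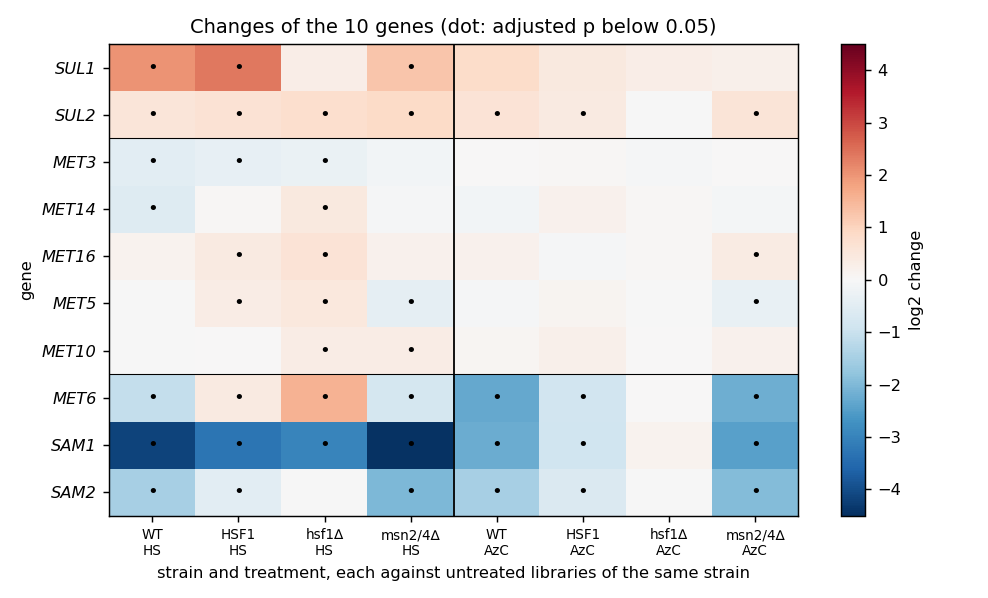
Log2 change of each of the 10 genes against the untreated libraries of the same strain, for heat shock (left 4 columns) and AzC (right 4 columns), red for higher and blue for lower, with a dot where the adjusted p was below 0.05. The row of MET6 is blue at -1.08 in heat-shocked WT and red at 1.55 in hsf1∆, and the hsf1∆ AzC column has no dot.

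Strains were compared without treatment next. Between the strain labelled msn2/4∆ and WT 2 of the 10 genes were higher and 0 lower. Of all tested genes 0.262% were higher and 0.786% lower. At an unadjusted p under 0.05, 8 of the 10 passed, all of them higher, against 3 of 48 other tested genes of sulfur metabolism. The share of all genes at that looser threshold was not computed. SUL1 stood at 4.36 ± 1.99 CPM against 1.07 ± 0.577, a log2 difference of 2.22 ± 0.40 (adjusted p = 0.00155), and every library of one group was above every library of the other. MET5 stood at 149 ± 5.32 CPM against 113.3 ± 4.87, at 0.39 ± 0.09 (adjusted p = 0.0144). The other 8 genes had differences from 0.07 ± 0.27 for SAM1 to 0.42 ± 0.17 for MET6, none of which passed. Among them MET10, at 0.30 ± 0.11 (adjusted p = 0.403), passed with the replicate number as a block (adjusted p = 0.0176), a fit that called 1.95% of all genes in place of 1.05%. Both calls were lost under some of the alternatives, and both were kept with the deep libraries thinned. Leaving out the 4 deep libraries leaves replicate 1 as the only untreated WT library. The SUL1 difference was then 1.49 and the MET5 difference 0.41. With the compared groups alone SUL1 was at 2.24 (adjusted p = 0.0726). MET5 did not pass without untreated WT replicate 1 (0.39, adjusted p = 0.0641), untreated WT replicate 3 (0.37, adjusted p = 0.103) or untreated replicate 1 of the strain labelled msn2/4∆ (0.37, adjusted p = 0.0963).

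HSF1+ had lower levels of 5 of the 10 genes than WT and higher levels of 0, against 12.6% and 17.5% of all tested genes (7.81% and 20.3% with library size alone). MET6 was at 263 ± 23.9 CPM against 527 ± 47.0 (-1.001 ± 0.17, adjusted p = 3.32e-05) and MET14 at 31.4 ± 2.56 against 47.7 ± 1.55 (-0.60 ± 0.09, adjusted p = 4.85e-06). SUL2 was lower by a log2 difference of -0.51 ± 0.11 (adjusted p = 0.000423), SAM2 of -0.49 ± 0.09 (adjusted p = 7.06e-05) and MET3 of -0.23 ± 0.07 (adjusted p = 0.0105). MET3 did not pass without untreated WT replicate 3 (-0.19, adjusted p = 0.0579), with library size alone (-0.17, adjusted p = 0.0599), with the compared groups alone (-0.19, adjusted p = 0.063) or with replicates 2 and 3 alone (-0.21, adjusted p = 0.0857). MET3 was at -0.27 without the 4 deep libraries, where replicate 1 is the only untreated WT library. MET16, at -0.28 ± 0.12 (adjusted p = 0.0645), passed with the replicate block (adjusted p = 0.0377), with RLE size factors (-0.30, adjusted p = 0.0405) and by DESeq2 (-0.30, adjusted p = 0.0375). SUL1, at -1.40 ± 0.63 (adjusted p = 0.0979), passed without untreated WT replicate 2 (-1.90, adjusted p = 0.0183), with the deep libraries thinned (-1.80, adjusted p = 0.0281) and by DESeq2 (-1.54, adjusted p = 0.021). At an unadjusted p under 0.05, 7 of the 10 passed, against 23 of 48 other tested genes of sulfur metabolism. The share of all genes at that threshold was not computed. None of the 10 estimates was above 0.

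Among the 2 strains with the cassette, hsf1∆ was the lower in most of these genes. Of the 10 genes 6 were lower in hsf1∆ than in HSF1+ and 1 was higher, against 18.9% and 19.5% of all tested genes. With scaling by library size alone the shares of all genes were 7.99% lower and 26.2% higher. MET6 was at 134.3 ± 26.3 CPM against 263 ± 23.9 (-0.97 ± 0.17, adjusted p = 5.74e-05) and MET10 at 61.0 ± 5.45 against 86.5 ± 5.58 (-0.50 ± 0.12, adjusted p = 0.000934). SAM1 was at 435 ± 27.0 against 719.6 ± 78.3 CPM (-0.73 ± 0.27, adjusted p = 0.0345). SUL1, at 1.32 ± 0.614 against 0.349 ± 0.104 CPM, was the one higher (1.83 ± 0.68, adjusted p = 0.0343). MET16 (-0.33 ± 0.12), SAM2 (-0.27 ± 0.09) and MET3 (-0.23 ± 0.07) were also lower. With scaling by library size alone MET3, MET16, SAM1 and SAM2 did not pass (adjusted p from 0.102 to 0.293). With the compared groups alone MET3 was at -0.17 (adjusted p = 0.0971) and MET16 at -0.27 (adjusted p = 0.0507), and with replicates 2 and 3 alone MET3 (-0.21), SAM2 (-0.23) and SUL1 (1.92) did not pass. Single libraries mattered too, as the number passing ran from 3 to 7 when 1 was left out. MET16, SAM1 and SUL1 each lost their call without untreated HSF1+ replicate 1 (adjusted p = 0.0625, 0.0611 and 0.102, at -0.34, -0.75 and 1.63), without untreated HSF1+ replicate 2 (0.0765, 0.11 and 0.0738, at -0.33, -0.64 and 1.86) and without untreated hsf1∆ replicate 3 (0.0615, 0.0598 and 0.0672, at -0.34, -0.76 and 1.83). SAM2 lost its call without untreated HSF1+ replicate 2 (-0.23, adjusted p = 0.0837), MET16 and SUL1 without untreated HSF1+ replicate 3 (-0.32, adjusted p = 0.0832, and 2.04, adjusted p = 0.0523), SAM1 without untreated hsf1∆ replicate 1 (-0.72, adjusted p = 0.0718) and SUL1 without untreated hsf1∆ replicate 2 (1.45, adjusted p = 0.143). MET14, at -0.23 ± 0.10 (adjusted p = 0.0578), passed without untreated hsf1∆ replicate 1 (-0.28, adjusted p = 0.0431) or replicate 3 (-0.37, adjusted p = 0.00618). It also passed with RLE size factors (-0.27, adjusted p = 0.0272), by DESeq2 (-0.26, adjusted p = 0.0279), with the replicate block (-0.24, adjusted p = 0.0268), with the deep libraries thinned (-0.27, adjusted p = 0.0279) and without them (-0.27, adjusted p = 0.0385).

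Whether the responses themselves differed between strains was tested as the difference of 2 log2 changes. These differences rest on the same untreated libraries as the comparisons above. For heat shock, HSF1+ against WT gave 3 positive differences and 0 negative ones among the 10 genes, where 4.21% and 7.56% of all genes were called (2.01% and 16% with library size alone). MET6 differed by 1.51 ± 0.24 (adjusted p = 0.000107), SAM2 by 1.03 ± 0.13 (adjusted p = 2.29e-06) and MET14 by 0.66 ± 0.13 (adjusted p = 0.00117). All 3 genes fell in WT, and in HSF1+ their changes were 0.42, -0.48 and 0.07. SAM1, at 0.87 ± 0.39, did not pass (adjusted p = 0.147), but did without WT heat-shock replicate 1 (1.37, adjusted p = 0.00866) and with replicates 2 and 3 alone (1.01, adjusted p = 0.0338). MET5, at 0.35 ± 0.12 (adjusted p = 0.0636), passed without WT heat-shock replicate 3 (0.43, adjusted p = 0.0299) or HSF1+ heat-shock replicate 1 (0.41, adjusted p = 0.0396) and with the replicate block (0.35, adjusted p = 0.0195). For hsf1∆ against HSF1+ there were again 3 positive and 0 negative differences (8.04% and 14.2% of all genes, or 11% and 10.5% with RLE size factors and 9.58% and 10.5% with library size alone), in the same 3 genes. They were 1.13 ± 0.24 for MET6 (adjusted p = 0.00108), 0.48 ± 0.13 for SAM2 (adjusted p = 0.00652) and 0.39 ± 0.13 for MET14 (adjusted p = 0.0384). With replicates 2 and 3 alone SAM2 was at 0.31 (adjusted p = 0.141) and MET14 at 0.25 (adjusted p = 0.307), and with the compared groups alone MET14 was at 0.48 (adjusted p = 0.0605). MET14 was also lost without any 1 of 5 libraries, namely untreated hsf1∆ replicate 2 (0.35, adjusted p = 0.052), untreated HSF1+ replicate 1 (0.32, adjusted p = 0.117), hsf1∆ heat-shock replicate 3 (0.36, adjusted p = 0.0732) and HSF1+ heat-shock replicates 1 (0.33, adjusted p = 0.103) and 2 (0.37, adjusted p = 0.0774). MET10, at 0.30 (adjusted p = 0.2), passed with the replicate block (0.30, adjusted p = 0.0301) and with replicates 2 and 3 alone (0.31, adjusted p = 0.0446).

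The strain labelled msn2/4∆ differed from WT in heat shock in 4 of the 10 genes, 2 in each direction, against 16.3% and 13.9% of all genes (22.4% and 10.8% with library size alone). MET14 (0.53 ± 0.13, adjusted p = 0.00284) and MET3 (0.35 ± 0.10, adjusted p = 0.00715) fell in WT and did not pass in that strain, although the fall of MET3 there passed under the 4 alternatives given above. SAM2 (-0.50 ± 0.13, adjusted p = 0.00349) fell further there, and MET5 (-0.38 ± 0.12, adjusted p = 0.0191) fell there and did not pass in WT. MET5 was at -0.30 without WT heat-shock replicate 3 (adjusted p = 0.072) and with library size alone (adjusted p = 0.0549), and MET3 at 0.29 with replicates 2 and 3 alone (adjusted p = 0.0958). MET10, at 0.35 ± 0.16 (adjusted p = 0.0979), passed without WT heat-shock replicate 3 (0.45, adjusted p = 0.0404) or heat-shock replicate 1 of the strain labelled msn2/4∆ (0.46, adjusted p = 0.027). It passed too with the replicate block (0.35, adjusted p = 0.00838), with library size alone (0.44, adjusted p = 0.029) and with replicates 2 and 3 alone (0.37, adjusted p = 0.0114). SUL2, at 0.31 (adjusted p = 0.107), passed with library size alone (0.40, adjusted p = 0.0412). Without the 4 deep libraries, where replicate 1 is the only untreated WT library, MET14 was at 0.46, MET3 at 0.35 and MET5 at -0.42.

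For AzC the HSF1+ and WT responses differed in 3 genes, all 3 with a smaller fall in HSF1+, where 11.3% of all genes gave a positive and 11.2% a negative difference. With library size alone these shares were 5.12% and 26.5%, and SUL2, at -0.23 (adjusted p = 0.275), then passed at -0.41 (adjusted p = 0.038). The 3 genes with TMM scaling were MET6 at 1.44 ± 0.24 (adjusted p = 0.000181), SAM1 at 1.34 ± 0.38 (adjusted p = 0.0137) and SAM2 at 0.86 ± 0.13 (adjusted p = 3.67e-05). SAM1 was at 1.35 without the 4 deep libraries, where untreated WT and AzC-treated HSF1+ have 1 library each. MET14, at 0.32 ± 0.13 (adjusted p = 0.0688), passed without untreated HSF1+ replicate 1 (0.39, adjusted p = 0.0387), WT AzC replicate 1 (0.38, adjusted p = 0.0415) or HSF1+ AzC replicate 2 (0.39, adjusted p = 0.0436). It also passed with the replicate block (0.33, adjusted p = 0.0248), with the compared groups alone (0.34, adjusted p = 0.041), with replicates 2 and 3 alone (0.45, adjusted p = 0.0338) and with the deep libraries thinned (0.37, adjusted p = 0.0416). Between hsf1∆ and HSF1+ 2 genes passed, MET6 at 0.89 ± 0.24 (adjusted p = 0.0103) and SAM2 at 0.63 ± 0.13 (adjusted p = 0.000554), against 7.55% of all genes up and 13% down (10.5% and 10.8% with RLE size factors). Within hsf1∆ AzC called 0% of all genes up and 0.0164% down. SAM1, at 1.03 ± 0.38, just missed (adjusted p = 0.0542) and passed with RLE size factors (1.08, adjusted p = 0.0409), by DESeq2 (1.08, adjusted p = 0.0254), with the replicate block (1.03, adjusted p = 0.0203), with the compared groups alone (1.01, adjusted p = 0.000106) and with replicates 2 and 3 alone (0.91, adjusted p = 0.0382). SUL2, at -0.39 ± 0.16 (adjusted p = 0.0777), passed without untreated HSF1+ replicate 1 (-0.51, adjusted p = 0.0261) or HSF1+ AzC replicate 3 (-0.45, adjusted p = 0.0491) and with the replicate block (-0.40, adjusted p = 0.0499). MET6 was at 0.80 without the 4 deep libraries, where replicate 3 is the only AzC-treated HSF1+ library. Between the strain labelled msn2/4∆ and WT 0 of the 10 passed by edgeR, against 0.524% and 1.05% of all genes (0.786% and 0.884% with library size alone). By DESeq2 1 passed. At an unadjusted p under 0.05, 1 passed too, against 6 of 48 other tested genes of sulfur metabolism. The share of all genes at that threshold was not computed. In both cases the gene was SAM2, at -0.46 ± 0.13 (adjusted p = 0.061). It also passed without WT AzC replicate 2 (-0.53, adjusted p = 0.0388) and with the replicate block (-0.46, adjusted p = 0.0339).

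**Figure D4:**
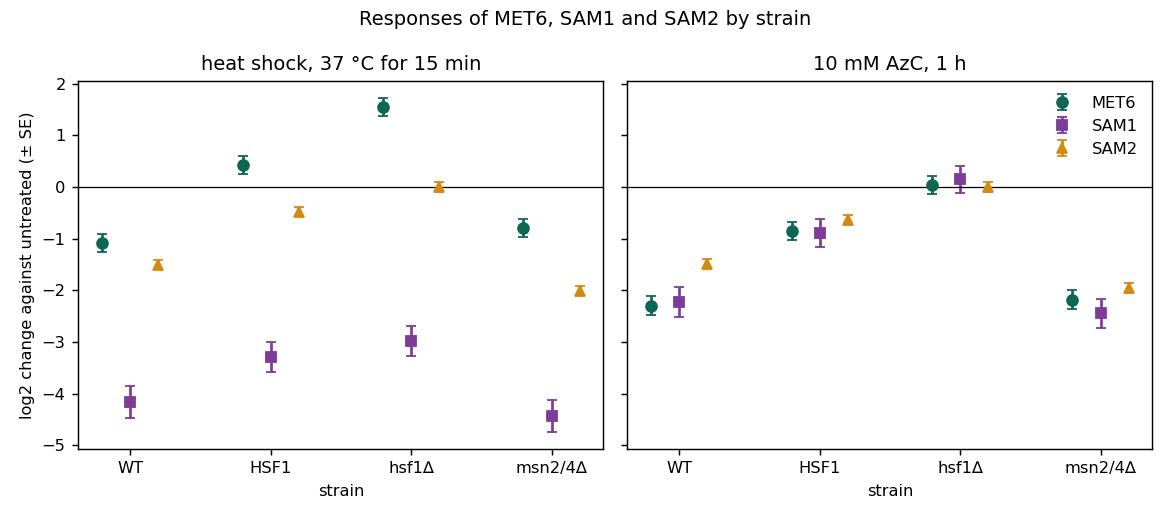
Log2 change against untreated (± standard error, 3 libraries per group) of MET6, SAM1 and SAM2 by strain, for heat shock (left) and AzC (right). In heat shock MET6 runs from -1.08 in WT to 1.55 in hsf1∆ while SAM1 lies between -2.98 and -4.43 in all 4 strains, and after AzC the 3 genes of hsf1∆ lie between -0.00 and 0.14.

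Within WT the treatments were set against each other, although they differ in duration and temperature. After AzC 3 of the 10 genes were higher than after heat shock and 2 lower, where 30.5% and 32.7% of all genes were. SAM1 was higher after AzC by 1.93 ± 0.29 (adjusted p = 1.33e-06), MET3 by 0.49 ± 0.07 (adjusted p = 6.57e-07) and MET14 by 0.47 ± 0.09 (adjusted p = 8.01e-05). MET6 was lower by a log2 difference of -1.22 ± 0.18 (adjusted p = 8.18e-07), and SUL1 of -1.17 ± 0.42 (adjusted p = 0.0177). The SUL1 difference did not pass without WT heat-shock replicate 1 (-0.97, adjusted p = 0.0721) or WT AzC replicate 2 (-1.08, adjusted p = 0.0549), nor with replicates 2 and 3 alone (-0.96, adjusted p = 0.134). Heat-shocked WT thus had more MET6 than SAM1 per kilobase (107.97 ± 19.7 and 38.6 ± 20.0 CPM), and AzC-treated WT the reverse (46.4 ± 1.33 and 146 ± 32.7 CPM).

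The regulators of the pathway moved in both directions. MET4, the activator gene, rose in heat-shocked hsf1∆ (0.45 ± 0.09, adjusted p = 3.09e-05) and HSF1+ (0.19 ± 0.09, adjusted p = 0.047), and read 0.11 ± 0.08 in WT. MET28, which encodes a cofactor of Met4 and Cbf1, rose in heat shock in all 4 strains, most in hsf1∆ at 1.87 ± 0.28 and least in the strain labelled msn2/4∆ at 0.72 ± 0.26. MET32 fell in heat shock in all 4, at -0.88 ± 0.16 in WT, and MET31 in 3, at -0.23 ± 0.08 in WT. After AzC MET31 fell in WT (-0.74 ± 0.08), HSF1+ (-0.54 ± 0.08) and the strain labelled msn2/4∆ (-0.71 ± 0.08), while MET32 rose in the strain labelled msn2/4∆ alone among the calls (0.50 ± 0.15, adjusted p = 0.0048). MET30, whose product marks Met4 with ubiquitin, fell in heat-shocked WT (-0.34 ± 0.12) and HSF1+ (-0.41 ± 0.12). CBF1 passed in no treatment of any strain, and was lower in untreated HSF1+ than in WT (-0.47 ± 0.13). GCN4, the activator gene of amino acid synthesis, whose output is set largely by translation, fell in 7 of the 8 treatments of a strain, the exception being hsf1∆ under AzC. Its fall in WT was -1.21 ± 0.09 in heat shock and -1.05 ± 0.09 after AzC.

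Other genes of sulfur metabolism, 48 tested of a list of 49, were counted against the share of all tested genes in the same comparison. In heat-shocked WT 12 of the 48 rose (25.0%) and 26 fell (54.2%), against 42% and 38.1% of all genes. In HSF1+ the numbers were 13 (27.1%) and 24 (50%), against 40% and 36.5%. In hsf1∆ they were 13 (27.1%) and 23 (47.9%), against 38.2% and 38.4%, and in the strain labelled msn2/4∆ 11 (22.9%) and 22 (45.8%), against 43.5% and 34%. After AzC 10 rose (20.8%) and 23 fell (47.9%) in WT, against 34.2% and 32.7% of all genes. In HSF1+ 8 rose (16.7%) and 14 fell (29.2%), against 23% and 21.9%, and in the strain labelled msn2/4∆ 13 rose (27.1%) and 21 fell (43.8%), against 36% and 31%. In hsf1∆ 0 passed, also at an unadjusted p under 0.05. Their median change was -0.29 in heat-shocked and -0.22 in AzC-treated WT. In untreated cells of the strain labelled msn2/4∆ 0 of the 48 differed from WT by edgeR (3 at an unadjusted p under 0.05).

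The smaller lists hold 3 to 9 genes each, so that 1 gene moves a share by over 10 percentage points, and their counts stand beside 42% of all genes up and 38.1% down in heat-shocked WT. Of 9 methyl cycle and folate genes 2 rose and 6 fell in heat-shocked WT, and 1 rose and 7 fell after AzC, where 34.2% of all genes rose and 32.7% fell. SAM4, which encodes an AdoMet-homocysteine methyltransferase, fell in heat-shocked WT from 397 to 62.8 CPM (-2.66 ± 0.10), and in each of the other strains too, at -1.98 ± 0.10 in HSF1+, -1.78 ± 0.10 in hsf1∆ and -1.74 ± 0.10 in the strain labelled msn2/4∆. SHM2, the cytosolic serine hydroxymethyltransferase gene that feeds methyl groups to methionine synthase, fell after AzC in WT from 851 to 187 CPM (-2.19 ± 0.14), in the strain labelled msn2/4∆ (-2.02 ± 0.14) and in HSF1+ (-1.43 ± 0.14). Its heat shock changes, given after its values were seen, differed in sign, with rises in hsf1∆ (1.01 ± 0.14, adjusted p = 1.7e-07) and in the strain labelled msn2/4∆ (0.72 ± 0.14, adjusted p = 2.69e-05), a fall in HSF1+ (-0.47 ± 0.14, adjusted p = 0.00271) and -0.29 ± 0.14 in WT (adjusted p = 0.0525). Among 8 genes of sulfur compound transport 4 rose and 3 fell in heat-shocked WT. MMP1, the S-methylmethionine permease gene, was at -2.51 ± 0.16 and SAM3, the AdoMet permease gene, at -1.19 ± 0.12, while AGP3 rose by 1.47 ± 0.10. SOA1, a transporter gene of inorganic sulfur and sulfonates, rose in the heat-shocked strain labelled msn2/4∆ from 8.33 to 25.7 CPM (1.62 ± 0.15).

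The upstream and side branches were also counted in heat-shocked WT, beside the same 42% of all genes up and 38.1% down. MET8, which encodes an enzyme of the siroheme cofactor of sulfite reductase, fell in heat-shocked WT from 19.1 to 7.42 CPM (-1.38 ± 0.19) and after AzC to 8.96 CPM (-1.10 ± 0.18). The 3 siroheme and PAP genes all fell in heat-shocked WT. In the branch that makes O-acetylhomoserine 0 of 4 tested genes rose and 2 fell there, with HOM2 at -0.78 ± 0.08. MET2, the homoserine O-acetyltransferase gene of that branch, rose in heat-shocked HSF1+ (0.73 ± 0.26) and hsf1∆ (1.00 ± 0.30) and was at -0.32 ± 0.24 in WT. Of 6 transsulfuration and glutathione genes 1 rose and 3 fell in heat-shocked WT, with CYS4, the cystathionine beta-synthase gene, at -1.48 ± 0.14. STR3, the cystathionine beta-lyase gene, rose in heat-shocked hsf1∆ from 4.80 to 17.1 CPM (1.84 ± 0.25). Of 8 genes of alternative sulfur sources and methionine salvage 3 rose and 4 fell in heat-shocked WT, MRI1 falling by 1.95 on the log2 scale and ADI1 rising by 1.16 ± 0.08. The thioredoxin genes, whose products donate electrons to the reductase Met16, split in heat-shocked WT, with TRX2 up at 0.82 ± 0.08 and TRX1 down at -0.97 ± 0.10.

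**Figure D5:**
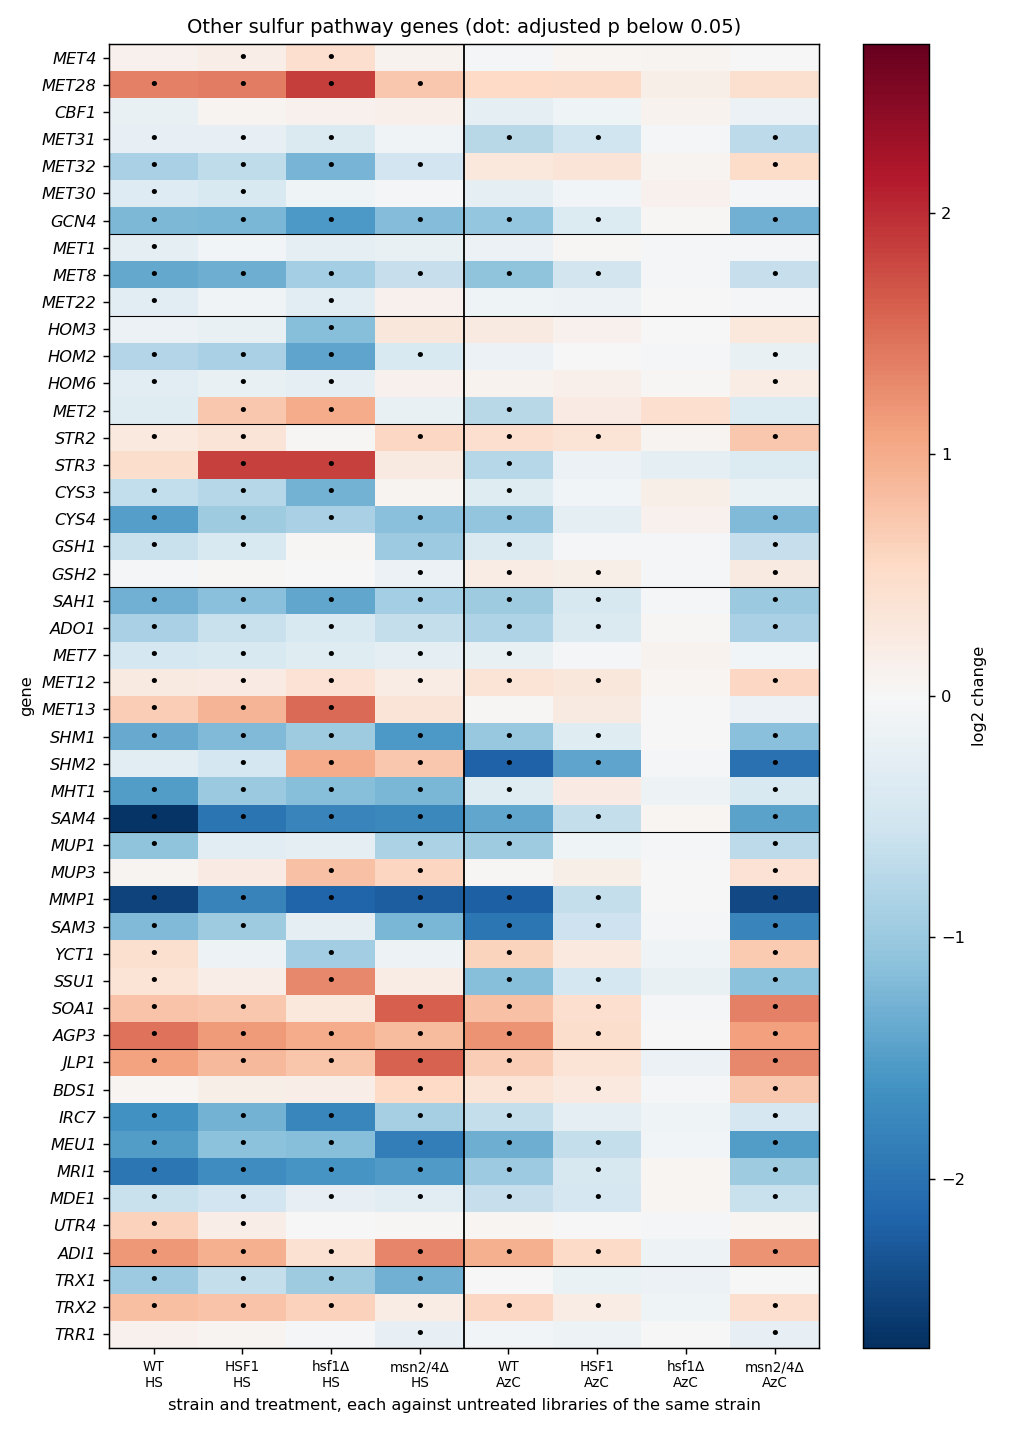
Log2 change of 48 other sulfur pathway genes against untreated libraries of the same strain, for heat shock (left 4 columns) and AzC (right 4 columns), with a dot where the adjusted p was below 0.05 and lines between the 8 gene lists. SAM4 is at -2.66 and MMP1 at -2.51 in heat-shocked WT, and the hsf1∆ AzC column has no dot.

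Likeness of pattern was measured as Pearson's r over the 12 group means of log2 CPM, which share libraries and scaling and are given as a description. Each nearest gene is the top one among all tested genes outside the 10. How common such values of r are among all genes was not computed. SAM1 was most like RPA190, the gene of the largest RNA polymerase I subunit, at r = 0.998. SAM2 was most like SUI1 (0.965) and MET6 most like GPP1 (0.882). The nearest genes of the permeases were LEU4 for SUL2 (0.978) and YLR124W for SUL1 (0.924). Those of the assimilation genes were SER33 for MET3 (0.976), ERG20 for MET14 (0.93), VPS1 for MET16 (0.945), HRQ1 for MET10 (0.938) and YDR320W-B for MET5 (0.728), so MET5 had the least close neighbour. SUL2 and the 5 assimilation genes, whose windows all hold the Cbf1 motif and the short Met31 and Met32 form, had r between 0.155 and 0.930 over their 15 pairs, with a median of 0.741. Between these 6 genes and SAM1 or SAM2 r ran from -0.664 to 0.315. The 2 ranges overlap. SAM2, whose window holds both motifs, had r with these 6 genes from -0.598 (SUL2) to 0.274 (MET5). SUL1, whose window holds neither, had r with them from 0.325 (MET3) to 0.815 (SUL2). For MET6, whose window also holds neither, r with them ran from 0.116 (MET3) to 0.691 (MET5). Whether motifs and pattern go together was not tested. The mean profile of the 10 genes was most like those of OST3 (0.928), PHO89 (0.903), SAR1 (0.895), YIL169C (0.891) and MET2 (0.875).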

How the data were processed

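RNA of 36 yeast libraries was sequenced as poly-A cDNA (TruSeq, NovaSeq 6000), per the labels' protocols. The deposited table holds raw read counts per gene that the authors made. STAR, Salmon, Trim Galore, FastQC and build R64 are named, per the submitters' processing notes. The sources used here do not give the counting step, its use of strand or its handling of reads shared by several genes, so overlapping genes could not be told apart. The 10 genes and the pathway lists were chosen with earlier results of these data known. Genes were filtered with filterByExpr by group, scaled with TMM and fitted with edgeR 4.0.16 (quasi-likelihood test, 1 mean per group over all 36 libraries, limma 3.58.1, R 4.3.3). P-values were adjusted by the Benjamini-Hochberg method over all 6109 tested genes, and a call is an adjusted p below 0.05. Standard errors were derived from each change and its F statistic in that fit. The 95% intervals of a change were computed from these with a t distribution, and not by edgeR itself. DESeq2 1.42.0 was an alternative, as were other scalings, no filter, a replicate block, the compared groups alone, replicates 2 and 3 alone, thinning of the deep libraries and leaving out each library. Leaving out the 4 deep libraries was chosen after seeing the data. It leaves 1 library in untreated WT and 1 in AzC-treated HSF1+. For comparisons with these groups only effect sizes are given for it. All 10 genes are described in each comparison. Of the other lists, regulators and strain checks may be named in any comparison and otherwise at most the 3 genes with the smallest p of a list in a comparison. Levels for likeness used a prior count of 2. Same-numbered libraries deviated together (every correlation over 0.1) in the untreated comparisons of WT with HSF1+ (lowest 0.150) and with the strain labelled msn2/4∆ (lowest 0.190) and in WT heat shock (lowest 0.117) and AzC (lowest 0.163). They did so also under heat shock between WT and HSF1+ (0.238), WT and the strain labelled msn2/4∆ (0.240) and HSF1+ and hsf1∆ (0.337), under AzC between WT and HSF1+ (0.192) and WT and the strain labelled msn2/4∆ (0.169), and between the 2 treatments of WT (0.236). Of the 4 groups in each response difference, the treated and untreated libraries of at least 1 strain had a correlation under 0.1, so those numbers do not pair all libraries of such a difference. The pairing comes from that check and not from the labels. It was not clean in 2 of the heat shock comparisons. There libraries of unlike number reached 0.319 (WT and HSF1+) and 0.363 (WT and the strain labelled msn2/4∆). Sequences were read from the RefSeq R64 genome with biopython 1.88. The number of counts limits the precision, which for SUL1 is low. The fits were also run on counts simulated from the same kind of model, without any link between same-numbered libraries. That run cannot show whether an unpaired fit suits these data.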

Additional observations from a re-analysis of the deposited data

Results flagged for a closer look

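Each result here is a log2 change in one strain minus the log2 change in another, picked out because that difference itself passed the edgeR quasi-likelihood test (adjusted p below 0.05, 3 libraries per group). For heat shock, the strain labelled msn2/4∆ minus WT gave 0.35 for MET3, 0.53 for MET14, -0.38 for MET5 and -0.50 for SAM2. HSF1+ minus WT gave 0.66 for MET14, 1.51 for MET6 and 1.03 for SAM2. In hsf1∆ minus HSF1+ MET14 was at 0.39, MET6 at 1.13 and SAM2 at 0.48.

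For AzC, HSF1+ minus WT gave 1.44 for MET6, 1.34 for SAM1 and 0.86 for SAM2, and hsf1∆ minus HSF1+ gave 0.89 for MET6 and 0.63 for SAM2. MET6 and SAM2 thus appeared in all 4 comparisons that involve the strains with the chaperone cassette. These comparisons share libraries with one another, and the untreated levels of both genes also differed between the same strains. Within hsf1∆ AzC called 0% of all tested genes up and 0.0164% down.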

How the results depend on the processing

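Of 3058 changes of the 10 genes recomputed under the alternatives, 70 lost a call, 67 gained one and 0 called changes turned in sign. A further 2870 were counted as the same. Called changes among these kept their call and direction, and uncalled ones moved by less than the spread between replicates, whatever their sign. The other 51 were uncalled changes that moved by more than that spread. In all 142 uncalled changes crossed 0, some of them among the 2870. For hsf1∆ against HSF1+ untreated the count of genes passing was 7, and 3 with library size alone, 4 with replicates 2 and 3 alone and 3 to 7 with a library left out. Of all tested genes 19.5% were higher and 18.9% lower there, and 26.2% and 7.99% with library size alone. Shares of all genes are not given for the other settings of this comparison, so whether such losses were particular to these genes was not tested. For the strain labelled msn2/4∆ against WT untreated it was 2, and 1 with the compared groups alone and 1 to 2 with a library left out. Counts without the 4 deep libraries are not given where that leaves 1 library in a group. Thinning the deep libraries lost 0 calls of the 10 genes and gained 3. With the replicate block the count was 4 in place of 2 for the AzC difference between hsf1∆ and HSF1+. It was 1 in place of 0 for the AzC difference between the strain labelled msn2/4∆ and WT, as with DESeq2 (0 to 1 with a library left out). Shares of all genes with the block are not given for these AzC differences. The block gained 14 calls of the 10 genes, each given in the report, and lost none. Over all genes, calls for AzC in HSF1+ were 2744, and 3237 with the block. For the strain labelled msn2/4∆ against WT untreated they were 1.05% of the genes, and 1.95% with the block. Scaling by library size alone moved the WT AzC split from 2090 higher and 1997 lower to 2614 and 1493, and the median change from 0.02 to 0.16. It moved the median from 0.05 to 0.25 for AzC and from 0.11 to 0.27 for heat shock in the strain labelled msn2/4∆, from -0.05 to 0.07 for hsf1∆ against HSF1+ untreated, and from -0.00 to -0.18 for AzC and 0.00 to -0.12 for heat shock in the HSF1+ and WT difference. The cause was not tested. The promoter alternative was not run, since the windows were read from the genome.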
